A study of Mus musculus with 16 samples.

Results

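Meis2, Zic1, Zic2, Zic4, Nr2f1, Nr2f2, Npas1, Isl1 and Gbx2 are transcription factor genes that mark territories of the developing forebrain, and they were followed here in sorted parvalbumin-reporter cells of mouse cortex and striatum. They are 9 of the 30142 genes that the array annotation names through a transcript cluster with a single gene. The 9 were selected from measured region differences on these same arrays, so their striatum and cortex values, and the contrast of those differences between lines, are given as a description without a test. Each gene had 1 transcript cluster, and no filter on level was applied to it.

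The arrays held RNA from C57BL/6J mice aged 30 days, labelled male, whose red fluorescent cells were collected by fluorescence-activated sorting (FACS). In PV-tdTomato/+ mice, tdTomato was carried by a parvalbumin transgene, without Cre. In PVCre/+; tdTomato/+ mice, Cre recombinase made in parvalbumin cells switched on the tdTomato reporter, which then marks a cell from that time on. Cells came from the dorsal striatum or from motor and somatosensory cortex, so there were 4 groups of 4 arrays, 16 in all. All mice carried a reporter, and no unlabelled or unsorted cells are among the samples used here. To reach 2000 cells for a replicate, 2 to 4 mice were pooled, and 5 ng of their RNA was amplified before hybridisation. The labels do not say which pools shared mice, and p-values reflect only how much the pools varied, which may be technical. Levels are log2 values after RMA, the authors' background correction, normalization and summary, where a step of 1 is a doubling, and they cannot be compared between genes because each gene has its own probes.

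Background probe sets that match no mouse gene averaged at most 6.10, and that level is called background below. On single arrays the highest of these probe sets ran from 5.74 (PVCre striatum replicate 3) to 6.61 (PV-tdTomato striatum replicate 4). Whether a value near 6.10 counts as above background therefore depends on using 1 level for all arrays. The sorted cells were not of 1 kind. Pvalb, the defining gene of the sort, lay under 9 on 6 arrays. They were replicates 3 and 4 of PV-tdTomato striatum, the same numbers of PV-tdTomato cortex, and PVCre cortex replicates 2 and 4. On PVCre cortex replicates 2 and 4, Gad1, which encodes the GABA-synthesising enzyme, was at 8.88 and 7.40, against 11.63 to 14.43 on the other 14 arrays. Means of 9 oligodendrocyte markers were 12.85 to 15.65 on all 16 arrays, and those of 9 microglial markers were 7.30 to 9.42 in PVCre against 5.35 to 5.79 in PV-tdTomato. Xist, the X-inactivation RNA of female cells, was at 13.40 to 16.01 on 8 arrays and at 5.71 to 6.56 on the others. The high arrays were replicate 3 of PV-tdTomato striatum and of PV-tdTomato cortex, and replicates 1, 3 and 4 of PVCre striatum and of PVCre cortex. Xist level was therefore not balanced between the lines.

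The 9 factors belong to families that divide the forebrain into territories before neurons are born and stay on in some of their descendants. Meis2 is a TALE homeobox factor, and Zic1, Zic2 and Zic4 are zinc finger relatives of the Gli factors; they are known from the ventral forebrain, the septum and midline tissue. Nr2f1 and Nr2f2, also called COUP-TFI and COUP-TFII, are orphan nuclear receptors known for patterning the cortex and for marking interneurons that arise in the caudal ganglionic eminence. Npas1 is a bHLH-PAS repressor found in interneurons of that origin and in pallidal neurons, Isl1 is a LIM homeobox factor of striatal projection and cholinergic neurons, and Gbx2 is a homeobox factor of the midbrain-hindbrain border, the thalamus and precursors of striatal cholinergic neurons.

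The 5 factors with the widest spread between groups are shown by the 250 bases before their transcription start, because their levels moved in 2 patterns, striatum-high and cortex-high, and these stretches can be set beside each other. Sequences are from RefSeq, build GRCm38.p6, read 5′ to 3′ on the gene's strand; they lie at chr2:116064620-116064869 (minus strand, Meis2), chr9:91365769-91366018 (minus, Zic1), chr13:78198874-78199123 (minus, the first of the pair of Nr2f1 starts), chr7:70366747-70366996 (minus, Nr2f2) and chr7:16476781-16477030 (minus, Npas1). Capitals mark any match to a searched motif.
Meis2: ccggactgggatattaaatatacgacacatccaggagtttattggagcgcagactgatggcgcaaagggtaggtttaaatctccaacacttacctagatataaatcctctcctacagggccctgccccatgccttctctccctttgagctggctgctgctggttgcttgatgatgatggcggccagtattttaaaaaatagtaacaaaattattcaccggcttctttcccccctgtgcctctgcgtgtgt
Zic1: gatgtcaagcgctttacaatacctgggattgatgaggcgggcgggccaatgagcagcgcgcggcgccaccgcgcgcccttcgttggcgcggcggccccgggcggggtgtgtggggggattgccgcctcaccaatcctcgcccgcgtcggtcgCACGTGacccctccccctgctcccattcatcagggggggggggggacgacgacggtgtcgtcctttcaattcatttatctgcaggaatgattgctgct
Nr2f1: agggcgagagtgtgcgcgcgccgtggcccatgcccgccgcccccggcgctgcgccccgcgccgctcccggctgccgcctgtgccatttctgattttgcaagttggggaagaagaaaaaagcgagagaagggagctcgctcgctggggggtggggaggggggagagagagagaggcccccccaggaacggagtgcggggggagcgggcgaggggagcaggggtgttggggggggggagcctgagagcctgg
Nr2f2: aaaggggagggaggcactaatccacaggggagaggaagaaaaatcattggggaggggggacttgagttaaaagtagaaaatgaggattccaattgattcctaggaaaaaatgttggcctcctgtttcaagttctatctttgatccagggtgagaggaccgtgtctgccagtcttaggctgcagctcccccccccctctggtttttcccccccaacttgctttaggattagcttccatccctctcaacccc
Npas1: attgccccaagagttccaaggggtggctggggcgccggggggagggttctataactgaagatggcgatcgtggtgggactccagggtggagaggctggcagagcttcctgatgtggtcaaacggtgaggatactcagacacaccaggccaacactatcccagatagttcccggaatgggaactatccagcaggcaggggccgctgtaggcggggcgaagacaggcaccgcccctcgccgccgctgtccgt

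A stretch was found for 8 of the 9 factors. Both strands were searched for 4 short motifs. These were the TALE factor motif TGACAG, the nuclear receptor motif AGGTCA, the core motif ACGTG of bHLH-PAS factors, and the homeodomain motif TAATTA. None of them lies within another. Zic1 held 2 overlapping matches to ACGTG, which together read CACGTG, as did Gbx2, and Isl1 held 1. The TALE motif had 1 match in Zic4. ACGTG was present in 16.57% of 32851 mouse stretches of this length and TGACAG in 15.86%. AGGTCA, present in 14.02% of them, and TAATTA, in 4.84%, were in none of the stretches of the 8 factors, and Meis2, Nr2f1, Nr2f2 and Npas1 held no match to any motif. In base composition the stretches ran from 44.4% G or C in Zic4 to 72.0%, with a median of 62.0%, against a median of 52.4% over all stretches. Zic1 and Zic4 are adjacent protein-coding genes in the RefSeq annotation, and Zic2 lies beside Zic5.

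Meis2 and Zic1 were higher in striatum than in cortex in both lines. Meis2 was the only one of these 2 that stood above background on all 16 arrays. In PV-tdTomato striatum Meis2 was at 9.0, 9.11, 9.74 and 9.67 (mean 9.38 ± 0.38, SD, n = 4), and in PV-tdTomato cortex at 7.09, 7.11, 8.66 and 8.67 (mean 7.89 ± 0.90). The cortical arrays fell into a low pair, replicates 1 and 2, and a high pair, replicates 3 and 4, and neither reached the striatal arrays. In PVCre striatum Meis2 was at 8.83, 8.89, 8.80 and 8.58 (mean 8.78 ± 0.14), and in PVCre cortex at 7.38, 7.45, 6.82 and 7.83 (mean 7.37 ± 0.42). These groups did not overlap either. The region difference was 1.5 ± 0.35 (SE, n = 4 and 4) in PV-tdTomato, a 2.82-fold difference, and 1.40 ± 0.35 in PVCre, a 2.65-fold difference. The contrast between lines was -0.09 ± 0.50, smaller than its error. In bulk samples such as these, fewer cells of a type and less RNA per cell cannot be told apart.

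Astrocyte markers took the same low and high pairs of PV-tdTomato cortex arrays as Meis2. Their group mean was also higher in striatum in both lines, without overlap in PVCre but with overlap in PV-tdTomato. Of 10, 2 (Mlc1 and Sox9) were higher in striatum in both lines by limma's test and 8 did not pass; the median difference was 0.20 in PV-tdTomato and 0.33 in PVCre. The mean of the 10 was 6.66 and 6.62 on PV-tdTomato cortex replicates 1 and 2, where Meis2 was low, and 8.01 and 7.61 on replicates 3 and 4, where it was high. It was 7.29 to 7.94 in PV-tdTomato striatum, so cortex replicate 3 lay above all striatal arrays, which Meis2 did not show. The PVCre arrays had means of 6.92 to 7.27 in striatum and 6.19 to 6.78 in cortex. The pairs of PV-tdTomato cortex arrays were not particular to astrocyte markers. On replicates 1 to 4 there, oligodendrocyte markers were at 13.22, 13.36, 15.32 and 14.90, and endothelial markers at 5.43, 5.45, 6.32 and 6.22. Replicates 3 and 4 were those low in Pvalb. In PV-tdTomato striatum, too, Meis2 was lower on replicates 1 and 2 than on replicates 3 and 4. Striatal projection neurons also express Meis2, and the mean of 9 of their markers was 8.85 to 9.43 in PV-tdTomato striatum against 7.30 to 8.14 in cortex, and 7.5 to 8.37 in PVCre striatum against 6.49 to 6.83 in cortex. By limma's test 3 of these 9 were higher in striatum in PV-tdTomato and 4 in PVCre. The high PV-tdTomato cortex arrays for Meis2 were the low ones for projection neuron markers. With the glial and vascular marker level as a covariate, the Meis2 difference in PVCre was 0.91 instead of 1.40. The part of these cells in the Meis2 differences was otherwise not tested.

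Zic1 was above background on all 8 striatal arrays and on none of the 8 cortical ones. In PV-tdTomato striatum it was at 7.78, 7.69, 6.87 and 6.92 (mean 7.31 ± 0.49), and in PVCre striatum at 6.76, 6.5, 6.39 and 6.18 (mean 6.46 ± 0.24). The cortical arrays lay at 5.78, 5.81, 5.79 and 6.09 in PV-tdTomato and at 5.80, 5.89, 5.77 and 5.96 in PVCre. Striatum and cortex did not overlap in either line, and every PV-tdTomato striatal array was above every PVCre striatal array. The region difference was 1.45 ± 0.19 (2.73-fold) in PV-tdTomato and 0.60 ± 0.19 (1.52-fold) in PVCre, and the contrast between lines was -0.85 ± 0.27. Since the cortical values were at background, these folds depend on the background as well as on Zic1. Within PV-tdTomato striatum, the arrays with the higher Zic1 levels, replicates 1 and 2, were those with Pvalb at 11.38 and 11.86. Pvalb was at 7.29 and 8.40 on the others. In PVCre striatum Pvalb was at 10.20, 11.23, 11.87 and 11.65, and was lowest on replicate 1, where Zic1 was highest.

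Zic4, the neighbour of Zic1 in the genome, stayed under background on all 16 arrays. In striatum it was at 5.66, 5.94, 5.55 and 5.65 in PV-tdTomato and at 5.96, 5.93, 5.70 and 5.74 in PVCre. In cortex it was at 5.43, 5.49, 5.59 and 5.45 in PV-tdTomato and at 5.65, 5.65, 5.42 and 5.40 in PVCre. The regions overlapped in PV-tdTomato (difference 0.21 ± 0.10) and did not in PVCre (0.30 ± 0.10). At this level the arrays do not show whether Zic4 was expressed.

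Zic2 was above background on 1 of 16 arrays. It was at 5.53, 5.52, 5.52 and 5.38 in PV-tdTomato striatum and at 5.45, 5.71, 5.67 and 5.83 in PV-tdTomato cortex, where the groups overlapped (difference -0.18 ± 0.10). In PVCre striatum it was at 6.05, 6.13, 5.83 and 5.82, and in PVCre cortex at 5.46, 5.68, 5.65 and 5.72. There the groups did not overlap, and the difference was 0.33 ± 0.10. Endothelial markers had their highest values in the same group: the mean of 10 was 6.85 to 9.03 in PVCre striatum, against 5.98 to 6.16 in PVCre cortex and 5.43 to 6.32 in PV-tdTomato. By limma's test 3 of the 10 were higher in PVCre striatum than in PVCre cortex. Their part in the Zic2 values was not tested. Of these 3 Zic genes only Zic1 was above background on every striatal array. Zic5, which lies beside Zic2 and is not among the 9, was at 6.22 to 6.99 in PVCre striatum, above background on all 4 arrays, and at 5.42 to 5.93 in PVCre cortex. The Zic5 difference of 0.73 ± 0.19 did not pass (limma, adjusted p = 0.056), and in PV-tdTomato Zic5 was under background on all 8 arrays.

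Ependymal markers, which report cells that line the ventricle beside the striatum, were another feature of the striatal arrays. All 9 measured were higher in striatum in both lines by limma's test. Their mean was 8.11 to 9.40 in PV-tdTomato striatum against 5.54 to 5.57 in cortex, and 9.87 to 11.00 in PVCre striatum against 5.75 to 6.24 in cortex. On replicates 1 to 4 of PV-tdTomato striatum the mean was 9.23, 9.40, 8.11 and 8.61, high and low in the same pairs as Zic1. Ependymal markers were higher in PVCre than in PV-tdTomato striatum, whereas Zic1 was lower there. Their part in the levels of Meis2 and the Zic genes was not tested.

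**Figure D1:**
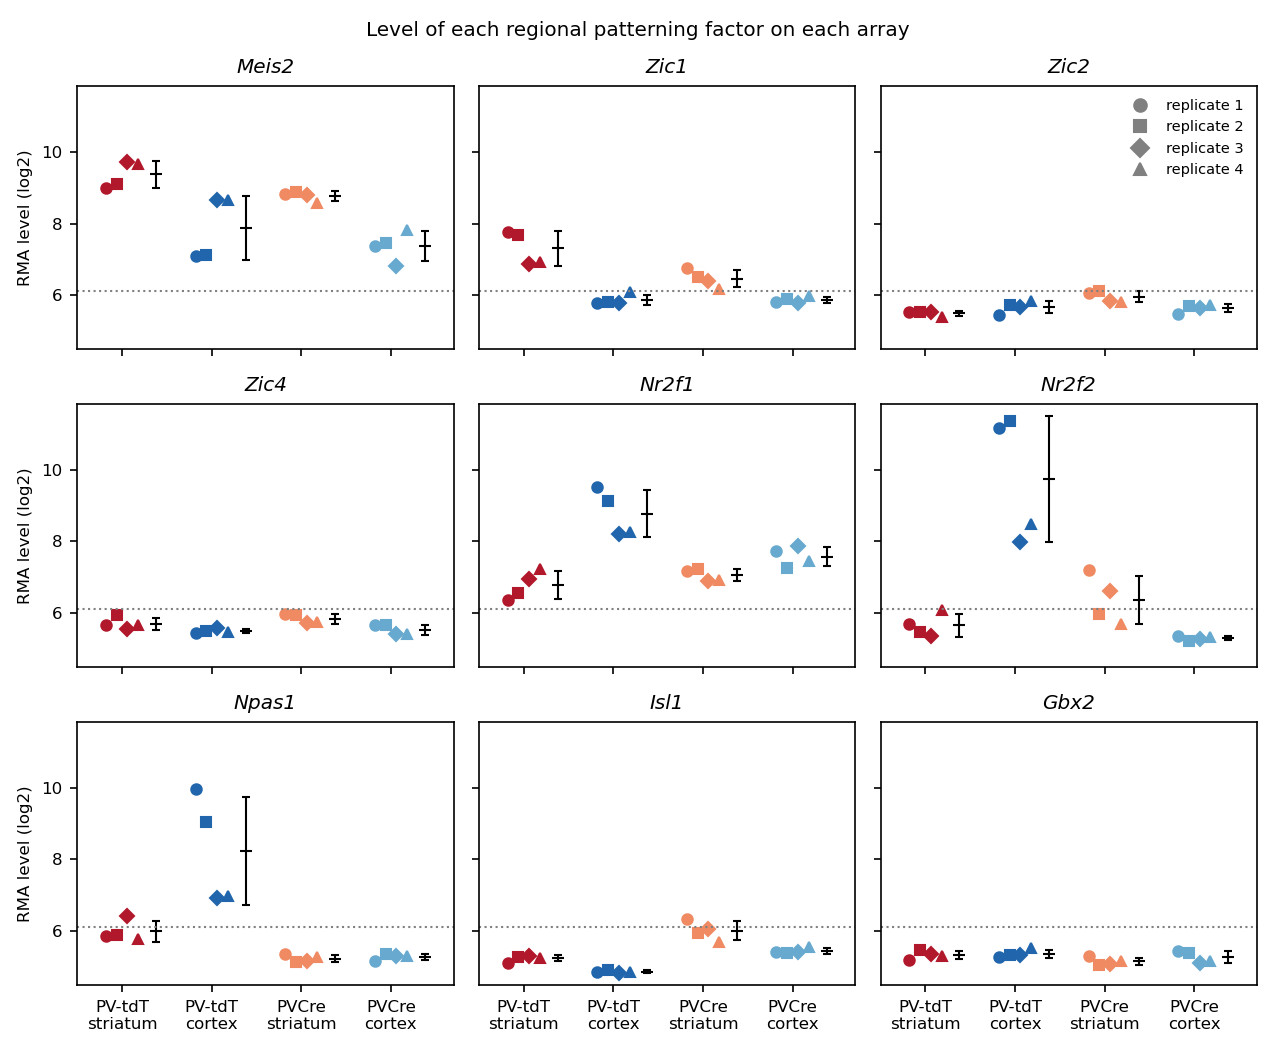
RMA level (log2) of each factor on each of the 16 arrays, by group; point shapes give the replicate number, bars the group mean ± SD (n = 4), and the dotted line background at 6.10. Meis2 and Zic1 are higher on striatal arrays in both lines, Nr2f1, Nr2f2 and Npas1 are highest in PV-tdTomato cortex, and Zic2, Zic4, Isl1 and Gbx2 lie at or under the dotted line except for 1 array each of Zic2 and Isl1.

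Nr2f1, Nr2f2 and Npas1 had their highest levels in PV-tdTomato cortex, each with replicates 1 and 2 above replicates 3 and 4. Nr2f1 was at 9.52, 9.14, 8.20 and 8.27 there (mean 8.78 ± 0.65) and at 6.35, 6.56, 6.94 and 7.23 in PV-tdTomato striatum (mean 6.77 ± 0.39). It was at 7.73, 7.27, 7.86 and 7.45 in PVCre cortex (mean 7.58 ± 0.27) and at 7.18, 7.22, 6.90 and 6.92 in PVCre striatum (mean 7.06 ± 0.17). All 16 arrays were above background and cortex was above striatum without overlap in both lines. The region difference was -2.01 ± 0.27 in PV-tdTomato, 4.04-fold lower in striatum, and -0.52 ± 0.27 in PVCre, 1.43-fold lower. The contrast between lines was 1.49 ± 0.39.

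Nr2f2, the closest relative of Nr2f1, spread most widely of the 9. In PV-tdTomato cortex it was at 11.17, 11.38, 8.0 and 8.49 (mean 9.76 ± 1.76), and in PV-tdTomato striatum at 5.69, 5.46, 5.36 and 6.08 (mean 5.65 ± 0.32), under background. The region difference was -4.11 ± 0.62; since striatum was under background, its size depends on the background as well, and no fold is given. In PVCre the order was turned: Nr2f2 was at 7.19, 5.96, 6.61 and 5.68 in striatum (mean 6.36 ± 0.68) and at 5.35, 5.22, 5.27 and 5.33 in cortex (mean 5.29 ± 0.06). Replicates 1 and 3 of PVCre striatum were above background, and no PVCre cortex array was. The PVCre difference was 1.07 ± 0.62, likewise against a group under background, the groups did not overlap, and the contrast between lines was 5.18 ± 0.88. Endothelial markers were highest, at 9.03, on PVCre striatum replicate 1, where Nr2f2 was highest as well. Their mean was 7.02, 6.85 and 7.31 on replicates 2, 3 and 4, an order that Nr2f2 did not follow. Nr2f2 is also known from venous endothelium. The part of endothelial cells in the PVCre difference was not tested.

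Npas1 was above background in PV-tdTomato cortex, at 9.98, 9.04, 6.92 and 6.98 (mean 8.23 ± 1.53), and on 1 PV-tdTomato striatum array. The striatal values of that line were 5.86, 5.88, 6.41 and 5.78 (mean 5.98 ± 0.29). In PVCre it stayed under background, at 5.33, 5.12, 5.15 and 5.26 in striatum and at 5.15, 5.35, 5.29 and 5.29 in cortex. The region difference was -2.25 ± 0.51 in PV-tdTomato, with most striatal values under background, and -0.05 ± 0.51 in PVCre, where the groups overlapped. The contrast between lines was 2.2 ± 0.72. Without the 6 arrays with Pvalb under 9, the Npas1 difference in PV-tdTomato was -3.64 and the contrast 3.64.

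Markers of caudal interneurons, the cells that Nr2f2 and Npas1 are known to mark, had the same high pair (replicates 1 and 2) and low pair (replicates 3 and 4) of PV-tdTomato cortex arrays. The mean of 10 such markers was 11.87, 11.67, 9.21 and 9.91 in PV-tdTomato cortex, 7.18 to 7.73 in PV-tdTomato striatum, 6.16 to 6.51 in PVCre striatum and 5.90 to 6.07 in PVCre cortex. By limma's test, 7 of the 10 were lower in PV-tdTomato striatum than in cortex. They were Vip, Adarb2, Reln, Ndnf, Htr3a, Lamp5 and Cck. Vip, which encodes vasoactive intestinal peptide, was at 14.82, 15.31, 9.55 and 12.54 in PV-tdTomato cortex and at 5.03 to 6.44 in PV-tdTomato striatum. The Vip region difference was -7.43 ± 0.90 (limma, adjusted p = 0.00025). In PVCre 1 of the 10, Cnr1, was called, and it was higher in striatum. Vip lay at 4.77 to 6.12 on the 8 PVCre arrays, at or near background. The pairs of PV-tdTomato cortex arrays were not particular to caudal interneuron markers. On replicates 1 to 4 there, the mean of 10 PV interneuron markers was 11.72, 11.29, 9.22 and 9.26. That of 4 somatostatin or Npy interneuron markers was 10.88, 10.44, 9.63 and 9.26. Glial markers went the other way, with oligodendrocyte markers at 13.22, 13.36, 15.32 and 14.90. The part of caudal interneurons in the levels of Nr2f1, Nr2f2 and Npas1 was not tested.

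**Figure D2:**
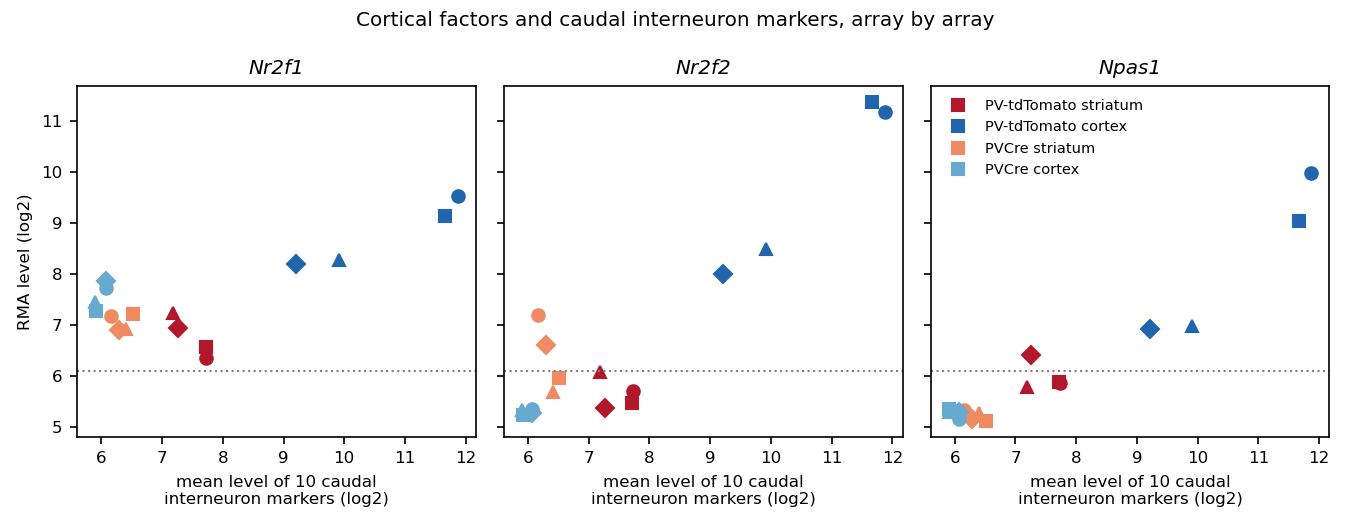
RMA level (log2) of Nr2f1, Nr2f2 and Npas1 on each array against the mean log2 level of 10 caudal interneuron markers; colours are the 4 groups, point shapes the replicate numbers (circle 1, square 2, diamond 3, triangle 4), and the dotted line is background at 6.10. The 4 PV-tdTomato cortex arrays lie apart to the right, with marker means of 9.21 to 11.87, and replicates 1 and 2 have the highest level of each factor.

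Isl1 and Gbx2 were close to or under background. Isl1 was at 5.10, 5.27, 5.29 and 5.23 in PV-tdTomato striatum and at 4.84, 4.91, 4.82 and 4.83 in PV-tdTomato cortex. In PVCre it was at 6.33, 5.92, 6.03 and 5.69 in striatum and at 5.40, 5.37, 5.39 and 5.54 in cortex, and 1 array, PVCre striatum replicate 1, passed background. Striatum was above cortex without overlap in both lines, by 0.37 ± 0.11 in PV-tdTomato and 0.57 ± 0.11 in PVCre. Chat, the defining enzyme of the cholinergic neurons that Isl1 marks, was at 4.93 to 5.18 on the 8 striatal arrays, and Slc18a3, the vesicular acetylcholine transporter, at 3.54 to 4.28. The other cholinergic markers measured, the choline transporter Slc5a7 and Slc10a4, were above background on the PV-tdTomato striatum arrays, at 6.73 to 7.12 and 6.63 to 7.40, and on no PVCre array. The mean of 9 pericyte and smooth muscle markers had its highest value, 8.25, on PVCre striatum replicate 1, the array with the highest Isl1. It was 6.60 to 6.82 on the other PVCre striatum arrays and 5.48 to 6.07 on the other 12 arrays. By limma's test 1 of the 9 was higher in striatum in PV-tdTomato and 3 in PVCre. Their part in the Isl1 values was not tested.

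Gbx2 gave no array above background and no separation of regions. It was at 5.17, 5.44, 5.34 and 5.28 in PV-tdTomato striatum, and at 5.26, 5.31, 5.31 and 5.52 in the matching cortex. It was at 5.28, 5.04, 5.06 and 5.16 in PVCre striatum and at 5.43, 5.38, 5.10 and 5.14 in PVCre cortex. The region differences were -0.04 ± 0.10 and -0.13 ± 0.10, about the size of their errors, and the groups overlapped in both lines.

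**Figure D3:**
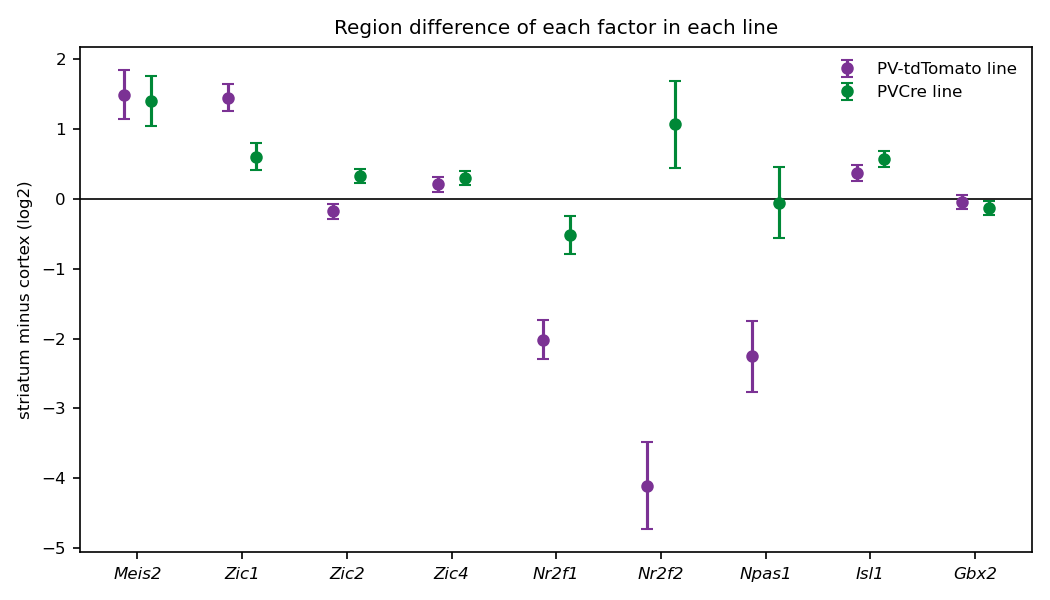
Striatum minus cortex difference (log2) of each factor in PV-tdTomato and in PVCre; points are estimates and bars ± 1 SE from the limma fit over 16 arrays. Meis2 has like values in both lines, 1.5 and 1.40, Nr2f2 runs from -4.11 in PV-tdTomato to 1.07 in PVCre, and Gbx2 lies within 0.13 of 0 in both.

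The difference between lines, averaged over both regions, was tested. The selection of the 9 did not use this contrast, but it is formed from the same 4 group means. For Nr2f1, Nr2f2 and Npas1 it rests largely on PV-tdTomato cortex, where they were highest. For Zic1 and Zic2 it rests on striatum, where Zic1 was highest in PV-tdTomato and Zic2 in PVCre. The p-values of all of these are therefore not independent of the selection. By limma's test with Benjamini-Hochberg adjustment over 30142 genes, 6 of the 9 factors differed between lines. Over all genes 64.8% did, so the share among the 9 is near the background. Nr2f2 fell by 1.88 ± 0.44 in PVCre relative to PV-tdTomato (limma, adjusted p = 0.0018) and Npas1 fell by 1.86 ± 0.36 (adjusted p = 0.00039). For both the difference lay mainly in cortex, where it was -4.47 for Nr2f2 and -2.96 for Npas1, against 0.71 and -0.76 in striatum. Isl1, which was above background on only 1 of 16 arrays, rose by 0.67 ± 0.08 (limma, adjusted p = 4.4e-06). Every PVCre array was above every PV-tdTomato array, and the size of this difference depends on the background as well. Isl1 was higher by 0.77 in striatum and by 0.57 in cortex.

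Zic1 fell by 0.43 ± 0.14 (limma, adjusted p = 0.012), with a difference of -0.86 in striatum and -0.01 in cortex. Zic2, under background on all but 1 array, rose by 0.22 ± 0.07 (limma, adjusted p = 0.016), with 0.47 in striatum and -0.04 in cortex. Nr2f1 fell by 0.46 ± 0.19 (limma, adjusted p = 0.049), the net of -1.21 in cortex and 0.29 in striatum. Meis2 differed by -0.56 ± 0.25 and did not pass (limma, adjusted p = 0.062), though it did without PV-tdTomato cortex replicate 1 or 2 or PVCre cortex replicate 4. Over all alternatives its difference ran from -1.55 to -0.10. Gbx2, at -0.13 ± 0.07 (0.12), and Zic4, at 0.09 ± 0.07 (0.31), did not pass. With the glial and vascular marker level as a covariate Meis2, at -1.55 (limma, adjusted p = 0.00047), and Isl1 passed, and the differences of Nr2f2 and Npas1 were -0.95 and -0.83. With the separation of positive from negative control probes as a covariate only Gbx2 passed; that separation was 4.16 to 4.85 in PV-tdTomato and 3.08 to 3.93 in PVCre, so it ran with the line. The Nr2f1 call was also lost with the replicate block (limma, adjusted p = 0.075). It was lost without replicate 3 or 4 of PV-tdTomato striatum, 1 or 2 of PV-tdTomato cortex, 1, 2 or 4 of PVCre cortex, or any PVCre striatum array.

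Other genes that pattern the forebrain were set beside the 9 as a list of 101 relatives and partners, of which 92 were measured. Adjusted over all genes by limma's test, 1.63% of all genes differed between regions in PV-tdTomato and 2.50% in PVCre. Of the 92, 5 did in PV-tdTomato (3 higher in striatum, 2 lower) and 2 in PVCre (1 higher, 1 lower). Their median difference was -0.03 in PV-tdTomato and -0.003 in PVCre, and that of all genes was -0.003 and -0.04. For the contrast between lines 0.0962% of all genes were called and 0 of the 92. At an unadjusted p under 0.05 there were 22 of the 92 in PV-tdTomato, 18 in PVCre and 12 in the contrast, against 2187, 3841 and 1875 of the 30142 genes. Between lines 62 of the 92 differed (23 higher and 39 lower in PVCre), or 67.4%, again near the 64.8% of all genes.

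Lhx8, a LIM homeobox relative of Isl1 that is known from the ventral forebrain and its cholinergic neurons, had the largest region difference of the 92. It was at 11.56, 11.30, 9.10 and 8.89 in PV-tdTomato striatum and at 6.04 to 6.28 in cortex, a difference of 4.05 ± 0.48 (limma, adjusted p = 0.00021). In PVCre it was at 6.96 to 7.67 in striatum and 6.04 to 6.31 in cortex, without overlap, and the difference of 1.13 ± 0.48 did not pass (limma, adjusted p = 0.33). Of 4 cholinergic markers, Chat and Slc18a3 were under background on all striatal arrays, whereas Slc5a7 and Slc10a4 were above it on the 8 PV-tdTomato arrays of both regions. Slc10a4 was higher in PV-tdTomato striatum by 0.56 ± 0.13 (limma, adjusted p = 0.043), and Slc5a7 differed by 0.12 ± 0.17 (adjusted p = 0.98). The part of cholinergic neurons in the Lhx8 difference was not tested. The 4 PV-tdTomato striatum arrays stood in the same high and low pairs for Lhx8 as for Zic1.

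Rarb, a retinoic acid receptor known from the striatum, was the only one of the 92 called in both lines, by 0.96 ± 0.22 in PV-tdTomato (limma, adjusted p = 0.043) and by 1.24 ± 0.22 in PVCre (adjusted p = 0.006). Its PV-tdTomato call was lost without replicate 1, 2 or 4 of PV-tdTomato striatum, 3 or 4 of PV-tdTomato cortex, 1, 2 or 4 of PVCre cortex, or any PVCre striatum array. It was also lost with quantile normalization, with centring on array medians, in a fit on the 8 PV-tdTomato arrays alone, without the arrays low in Pvalb, and without PVCre cortex replicates 2 and 4. The PVCre call of Rarb was lost without the arrays low in Pvalb and without PVCre cortex replicates 2 and 4. Foxp2, a forkhead factor of projection neurons, was higher in PV-tdTomato striatum by 0.85 ± 0.14 (limma, adjusted p = 0.0041). In the other direction, Npas3, the closest relative of Npas1, was at 10.93, 11.12, 9.54 and 9.75 in PV-tdTomato cortex and at 6.95 to 8.89 in striatum, a difference of -2.51 ± 0.43 (limma, adjusted p = 0.0048). Nr2e1, an orphan receptor of neural stem cells and astrocytes, differed by -1.99 ± 0.38 (limma, adjusted p = 0.012). Neither Npas3 nor Nr2e1 was called with the replicate block, nor, like Rarb and Foxp2, in a fit on the 8 PV-tdTomato arrays alone. In PVCre, Satb1, a chromatin organiser of interneurons from the medial ganglionic eminence, differed by -1.29 ± 0.31 (limma, adjusted p = 0.039). The call was lost without any 1 of the 8 striatal arrays or PVCre cortex replicate 1, 2 or 3. Centring on array medians lost the Satb1 call as well.

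By family, none of 9 measured TALE relatives of Meis2, of 4 Zic and Gli genes, of 12 early homeobox genes near Gbx2 and of 11 pallial genes was called between regions in either line. With an unadjusted p under 0.05 there were 2, 0, 2 and 2 of them in PV-tdTomato, and 0, 2, 2 and 2 in PVCre. Of the nuclear receptors 2 of 10 were called in PV-tdTomato (Rarb and Nr2e1) and 1 in PVCre, of the bHLH-PAS genes 1 of 9 (Npas3) and 0, and of the LIM genes 1 of 13 (Lhx8) and 0. Of 24 subpallial genes 1 was called in each line, Foxp2 and Satb1. Meis1, the sister gene of Meis2, was at 7.03 ± 0.88 in PV-tdTomato striatum and 7.46 ± 0.76 in cortex, a difference of -0.43 ± 0.42 (limma, adjusted p = 0.97).

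**Figure D4:**
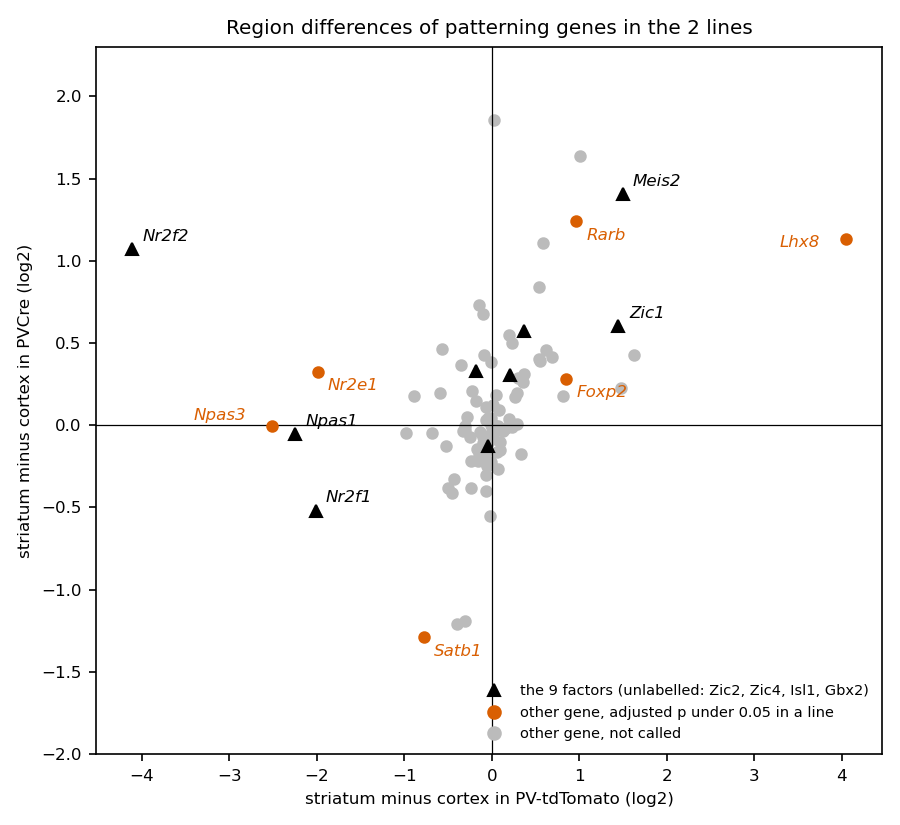
Striatum minus cortex difference (log2) in PV-tdTomato (horizontal) against that in PVCre (vertical) for the 9 factors (triangles) and 92 other patterning genes (circles; coloured where limma's adjusted p was under 0.05 in a line). Most of the 92 lie near 0 on both axes, Lhx8 lies far right at 4.05, and Nr2f2 stands alone in the upper left at -4.11 and 1.07.

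The 9 factors were also set against the genes most like each over the 16 arrays, by Pearson's r among 13875 named genes in the upper part of the level range. These r values share the same arrays and groups and are descriptions. Meis2 was most like Aqp4 (r = 0.94), the astrocyte water channel, then Mlc1 (0.93) and Ccdc114 (0.92). Zic1 was most like Lhx8 (0.97), Hmcn2 (0.95) and Cdh22 (0.93). Zic2 was most like Ly6c1, Ly6c2 and Eng (each 0.84), and Zic4 like Ak8 (0.87), Mlf1 and Dnali1 (each 0.86).

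Of the cortex-high factors, Nr2f1 was most like Sel1l3 (r = 0.92), Ndnf and Cck (each 0.90), and Nr2f2 like Slc17a8 (0.96), Rgs12 and Rxfp1 (each 0.95). For Npas1 the genes were Egfem1 (0.99), Yjefn3 and Asic4 (each 0.98). For the factors near background they were Ubxn10, Pdlim1 (each 0.96) and Tagln (0.95) for Isl1, and Prdm9 (0.85), Zfp345 (0.82) and Klk15 (0.79) for Gbx2. Among the 9 themselves, Nr2f2 and Npas1 had r = 0.91, Nr2f1 and Nr2f2 0.85, Nr2f1 and Npas1 0.82, and Meis2 and Zic1 0.73. Zic1 and Zic4, though adjacent, had r = 0.57, and Zic1 and Nr2f1 ran in opposite directions at -0.72.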

How the data were processed

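Per the submitters' processing notes, the log2 values that the authors deposited come from RMA as run in the Affymetrix Expression Console. Its version, the genome build and which arrays were normalized together are not given in the sources used. The table held 72688 probe sets, of which 65956 were transcript clusters. Clusters with several genes (2146) were not named, 827 symbols were updated, and the cluster with the highest mean stood for each of the 355 genes with more than 1. The 16 arrays were fitted together in limma 3.58.1 (R 4.3.3; lmFit, eBayes, 1 mean per group) over 30142 genes without a filter, with Benjamini-Hochberg adjustment and a threshold of 0.05; the code was tested on simulated data. Background is the highest mean of 23 antigenomic probe sets. With a filter on the third of genes with the lowest mean (under 5.53), 7 of the 9 factors remain; Isl1 and Gbx2 do not. The number of arrays limits the precision.

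The 9 factors, the patterning and marker lists and the alternatives were chosen with earlier results of these data known. All 9 factors were named. Other patterning genes were named if past the threshold, up to 4 per list and contrast with the largest difference. Markers were named from lists whose means differed most between groups and as defining markers of the sort, and the 3 most similar genes per factor were named by Pearson's r. Meis1 was added after its values were seen. The mean levels of the other lists of markers were not used beside a result.

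All groups use title numbers 1 to 4. With group means subtracted, PV-tdTomato striatum and cortex arrays of 1 number correlated at r = 0.54 to 0.71 in each of 4 cases. These numbers may pair the arrays. Replicates 3 and 4 of both regions were also those low in Pvalb, and the correlations cannot tell the 2 apart. The fit reported has no block, and the block is an alternative. Best matches followed the number in 2 of the 4. Same-numbered PVCre arrays correlated at -0.23 to 0.66. In PVCre cortex the numbers in titles and descriptions differ. The alternatives were a filter on level, every cluster, quantile normalization, centring on medians, a trended robust prior, array weights, only the arrays compared, the replicate block, 3 covariates (glial and vascular marker level, control probe separation, Xist), and leaving out arrays.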

Additional observations from a re-analysis of the deposited data

Results flagged for a closer look

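Of 36 sets of 4 arrays, 1 for each factor and group, 3 held an array far from the others by Dixon's criterion, which chance alone meets in about 5% of groups. Zic1 in PV-tdTomato cortex was highest on replicate 4, at 6.09, with a gap to the next array of 0.88 of the range. Zic2 in PV-tdTomato striatum was lowest on replicate 4, at 5.38, with a gap of 0.91 of the range. Npas1 in PV-tdTomato striatum was highest on replicate 3, at 6.41, with a gap of 0.83 of the range. The first 2 of these arrays lie under background and the last is just above it.

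Nr2f2 had region differences of opposite sign in the lines, with no overlap of striatal and cortical arrays in either. The contrast between the lines was 5.18 on the log2 scale. This difference was not tested, because Nr2f2 was selected with it known.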

How the results depend on the processing

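The 9 factors' region differences and line contrasts kept their sign under all alternatives where the difference was at least 2 standard errors. They moved by more than the spread between arrays in 9 cases, all without the 6 arrays with Pvalb under 9, where the PV-tdTomato difference was 1.94 for Zic1, -2.88 for Nr2f1, -5.70 for Nr2f2 and -3.64 for Npas1. The count of factors that differed between lines, 6, was 2 with the glial and vascular marker covariate and 1 with the control probe separation. Meis2 passed with array weights (limma, adjusted p = 0.033), the glial covariate (0.00047) and Xist (0.035). Zic1 did not pass with Xist (limma, adjusted p = 0.06), nor Zic2 with quantile normalization (0.26), under which Gbx2 did (0.002). Of the 6 calls between lines, 2 were lost with each of array weights, quantile normalization and Xist. Leaving out PVCre cortex replicates 2 and 4 also lost 2. Centring on array medians lost 1, as did leaving out the arrays low in Pvalb.

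Of the 92 other patterning genes, the 5 called in PV-tdTomato became 2 on only the arrays compared, 10 with the glial covariate, 8 with control separation and 15 without the arrays low in Pvalb. The 2 called in PVCre became 4 with the genes of lowest mean left out, 5 with quantile normalization, 6 with array weights, 5 on only the arrays compared, 13 with the glial covariate, 5 with control separation, 1 without PVCre cortex replicates 2 and 4, and 1 to 3 when each array was left out in turn. With the replicate block the PVCre count was 7. The 0 called in the contrast between lines became 1 with the glial covariate and 4 without the arrays low in Pvalb. The 62 called between lines became 28 with control separation. Over all genes, the PVCre region count of 755 was 1956 with the replicate block, 4111 with the glial covariate and 317 without PVCre cortex replicates 2 and 4. The PV-tdTomato count of 490 was 1003 without the arrays low in Pvalb and 288 on only the arrays compared, and the count of 29 in the contrast between lines ran from 4 to 352. The causes were not tested. Signal over background limits Zic2, Zic4, Isl1 and Gbx2, whose values lie at or under 6.10 except on 1 array each of Zic2 and Isl1.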
